A study of Mus musculus with 12 samples.

Results

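The N6-methyladenosine (m6A) peak table of mouse liver holds 37118 peaks, and 1555 of them (4.19%) carry no gene symbol. These 1555 peaks were taken by 1 rule, an empty or missing annotation in the deposited table, which uses no measured level or change. The other 35563 peaks, which carry a symbol, serve below as the annotated peaks.

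Livers came from male wild-type C57BL/6 mice aged 6 to 8 weeks at housing that received gavage with CdCl2 from a stock made in water. The control group was given 0 mg/kg/day and the cadmium group 20 mg/kg/day, and the livers were taken on day 90. Fragmented liver RNA was pulled down with an anti-m6A antibody and sequenced (MeRIP-seq). The labels give 6 animals per group and 3 immunoprecipitated samples per group, numbered 1 to 3 and called batches 1 to 3, and they do not say outright that each sample is 1 mouse, so the p-values measure the spread between these samples. Counts in peaks summed to between 40174736 and 52338612 per sample. Input libraries were not used here, so the amount of an RNA and its methylated share cannot be told apart at any peak, and neither can fewer cells of a type and less RNA per cell.

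The methyl mark m6A is placed on adenosines of nuclear RNA by a writer complex around METTL3 and METTL14, removed by demethylases and bound by reader proteins that act on splicing, translation and decay. In mRNA it gathers in long exons and around stop codons, and it is also found on long noncoding RNAs and on transcripts that run past the end of a gene. A peak without a symbol can lie in an unnamed gene, beyond the catalogued end of a named gene or in repeated sequence, and the table does not say which.

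Sequence could be shown only where a peak overlaps a window around a RefSeq gene start. Of the 1555 peaks, 39 overlapped such a window (250 bases before to 50 bases after the start), and 5 of these 39 differed between the groups, beside 11.3% of all tested peaks without a symbol and 6.27% of all tested peaks. The 3 of these 5 that share 50 bases or more with the window are printed below, since they show where a changed, unnamed peak lies relative to the start of a catalogued gene. The Urml peak covers the start, and the Gm42333 and Sytl5 peaks end upstream of it within the window. The Sytl5 peak nevertheless lies inside the RefSeq limits of Sytl5, so the start of its window is not the outermost start of that gene. Letters are those of RefSeq on GRCm38.p6, 5′ to 3′ on the strand of the gene, with the part inside the peak in capitals.
Urml, a long noncoding RNA of liver, window chr13:68234682-68234981 (minus strand), 82 bases inside the peak chr13:68233421-68234763: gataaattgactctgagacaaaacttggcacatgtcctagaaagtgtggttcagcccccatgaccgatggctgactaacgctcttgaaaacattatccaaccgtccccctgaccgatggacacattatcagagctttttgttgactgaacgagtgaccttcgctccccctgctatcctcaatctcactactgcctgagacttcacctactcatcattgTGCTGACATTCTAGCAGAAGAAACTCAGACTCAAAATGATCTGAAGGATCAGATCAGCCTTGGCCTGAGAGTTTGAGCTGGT
Gm42333, a predicted gene, window chr4:138964632-138964931 (minus strand), 241 bases inside the peak chr4:138964684-138964924: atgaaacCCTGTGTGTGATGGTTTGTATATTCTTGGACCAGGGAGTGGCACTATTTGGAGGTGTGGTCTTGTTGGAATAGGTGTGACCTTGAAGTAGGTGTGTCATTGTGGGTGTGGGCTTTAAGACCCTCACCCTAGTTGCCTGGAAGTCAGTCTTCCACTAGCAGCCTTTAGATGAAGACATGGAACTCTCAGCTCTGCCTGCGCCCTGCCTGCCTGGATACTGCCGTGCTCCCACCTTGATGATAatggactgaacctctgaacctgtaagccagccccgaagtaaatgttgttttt
Sytl5, a protein of vesicle transport, window chrX:9885371-9885670 (plus strand), 167 bases inside the peak chrX:9885398-9885564: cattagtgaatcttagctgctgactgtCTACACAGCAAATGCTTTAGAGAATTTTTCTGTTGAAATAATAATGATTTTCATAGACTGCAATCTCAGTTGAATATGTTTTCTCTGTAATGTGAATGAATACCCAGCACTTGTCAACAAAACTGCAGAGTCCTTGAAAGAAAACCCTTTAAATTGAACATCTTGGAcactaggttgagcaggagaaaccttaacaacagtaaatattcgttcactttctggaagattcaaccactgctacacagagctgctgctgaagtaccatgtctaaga
The core of the m6A consensus, GGAC, was searched on both strands. It occurred 0 times in the capitals of Urml, 1 time in those of Gm42333 (on the strand of the gene) and 1 time in those of Sytl5 (on the opposite strand). Of all 32851 windows of 300 bases, 87.7% hold GGAC on either strand and 45.5% hold the longer GGACT, so a match is a description only. The Urml peak had 15.4, 36.6 and 30.1 CPM (counts scaled to a common library size) in control samples 1 to 3 and 73.8, 50.3 and 56.8 CPM in cadmium samples 1 to 3. The Gm42333 peak had 1.12, 1.61 and 1.47 CPM in control and 3.19, 3.13 and 2.59 CPM in cadmium samples, and the Sytl5 peak 0.407, 0.259 and 0.430 CPM against 3.67, 0.543 and 1.57 CPM. The groups were apart at all 3, with edgeR adjusted p = 0.0381, 0.0238 and 0.0434, and each call was lost in at least 3 of the 6 fits that left out 1 sample.

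Peaks without a symbol lay on every chromosome, at uneven shares. They made up 2.67% of the peaks of chromosome 10, 2.68% of those of chromosome 9, 5.55% of those of chromosome 4 and 6.92% of those of chromosome X. On chromosome Y, 13 of 17 peaks (76.5%) had no symbol. Chromosome 2 held the most, 148 of 1555.

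The distance to the nearest annotated peak had a median of 15044 bp. The closest pair was 1 bp apart, beside the interferon-inducible GTPase gene Gm12250, and the farthest 21630120 bp, on chromosome Y. By distance, 204 peaks lay within 1000 bp of an annotated peak, 461 farther but within 10000 bp, 561 farther but within 100000 bp and 329 beyond that.

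**Figure D1:**
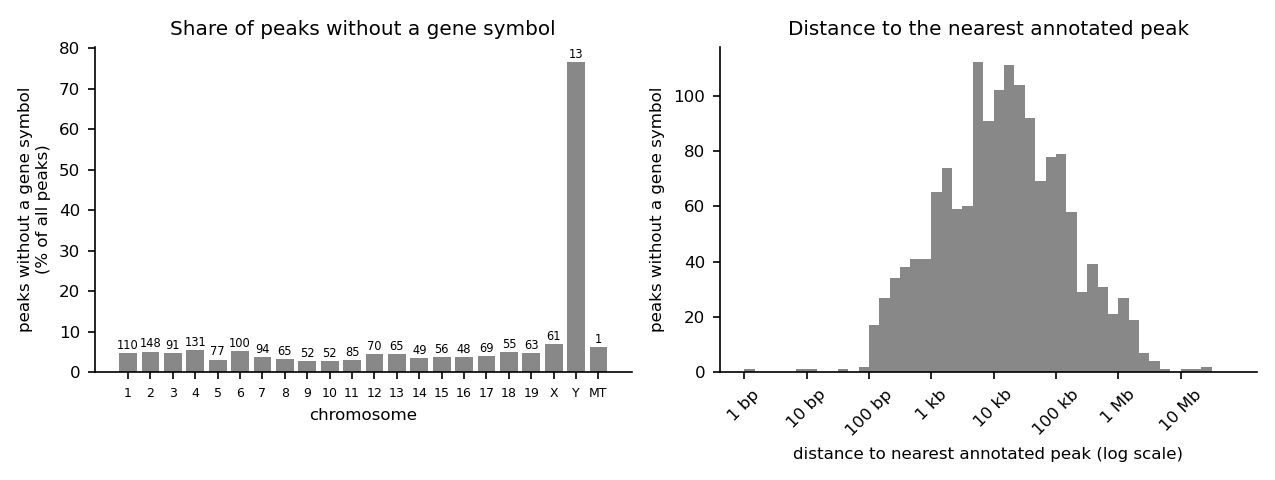
Left, the share of peaks without a gene symbol per chromosome in percent, with the number of such peaks above each bar: chromosome Y stands at 76.5% with 13 peaks and the autosomes and X lie between 2.67% and 6.92%. Right, the number of peaks without a symbol by distance to the nearest annotated peak on a log scale, with a median of 15044 bp.

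No symbol in the deposited table did not mean no gene in RefSeq. On GRCm38.p6, 608 of the 1555 peaks overlapped a RefSeq gene: 264 a protein-coding gene, 216 a long noncoding RNA, 119 a pseudogene and 9 another kind. The other 947 lay outside RefSeq genes, 455 of them within 5000 bp of one and 492 farther away. Of those 455, 152 were downstream of the gene, 120 upstream, and for 183 the strand of the gene was not in the tables used. None (0) overlapped a microRNA of the RefSeq table.

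Peaks also came in runs. Joining peaks up to 5000 bp apart gave 1025 loci, of which 757 were single peaks and 268 were runs that together held 798 peaks. There were 30 runs of 5 peaks or more.

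The peaks were narrower and lower than annotated ones. The median width was 171 bp (101 to 2840 bp), against 232 bp. The median level was 3.44 against 7.73, and per kb of peak 17.1 against 29.8 CPM. At the low end 134 of the peaks lay under 1 CPM, and at the high end 23 reached 100 CPM. Uneven counts were more frequent: in 24 of 1555 peaks a single sample held over 50% of the counts, against 49 of 35563 annotated peaks. A filter on low counts left 1540 peaks for testing. The 15 that it removed had 34 to 138 counts over the 6 samples and widths of 101 to 107 bp, 14 of them had over 50% of their counts in 1 sample, and control sample 1 was the highest in 9.

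All peaks without a symbol together took 2.32%, 2.18% and 2.46% of the counts in control samples 1 to 3 and 2.77%, 2.21% and 2.20% in the cadmium samples. The groups overlapped. The cadmium mean exceeded the control mean by 0.0733 percentage points (two-sided exact permutation test, p = 0.8, where 3 against 3 samples cannot go below 0.1). Within batches 1, 2 and 3 the difference was 0.447, 0.0313 and -0.259 percentage points, and without cadmium sample 1 it was -0.114, and the sign therefore differed with the batch and with 1 sample.

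Cadmium and control livers differed at 174 of the 1540 tested peaks (edgeR's quasi-likelihood test, Benjamini-Hochberg adjusted p below 0.05 over all peaks), which is 11.3%, beside 6.27% of all tested peaks. The cadmium samples were higher at 101 of them (3.55% of all tested peaks were called higher) and lower at 73 (2.72%). The change was at least 2-fold at 130 (3.13%). Leaving out 1 sample lowered the count over all peaks each time, and here each time except without control sample 1 (175 called). At the lowest, 57 peaks without a symbol were called without cadmium sample 3 (543 of all peaks, against 2325 with every sample). Without control sample 3 the count was 86 (1078 of all), and without control sample 2 it was 113 (1699 of all). DESeq2 called 269, all 174 among them. No call changed direction in any of these fits.

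The share called was above that of annotated peaks at every level. With all tested peaks cut into 4 equal groups by level, 8.53%, 13.1%, 11.8% and 20.1% of the peaks without a symbol were called from the lowest to the highest group, and 5.05%, 6.41%, 6.01% and 6.67% of the annotated peaks. The direction shifted with level in both. Below the median of all tested peaks (7.499 CPM), 77 peaks without a symbol were higher in cadmium samples and 33 lower. At or above it, 24 were higher and 40 lower. Over all 1540 the median log2 change was 0.08 and the median absolute log2 change 0.38, beside -0.01 and 0.22 among annotated peaks. None of these shares was tested, since neighbouring peaks repeat each other.

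**Figure D2:**
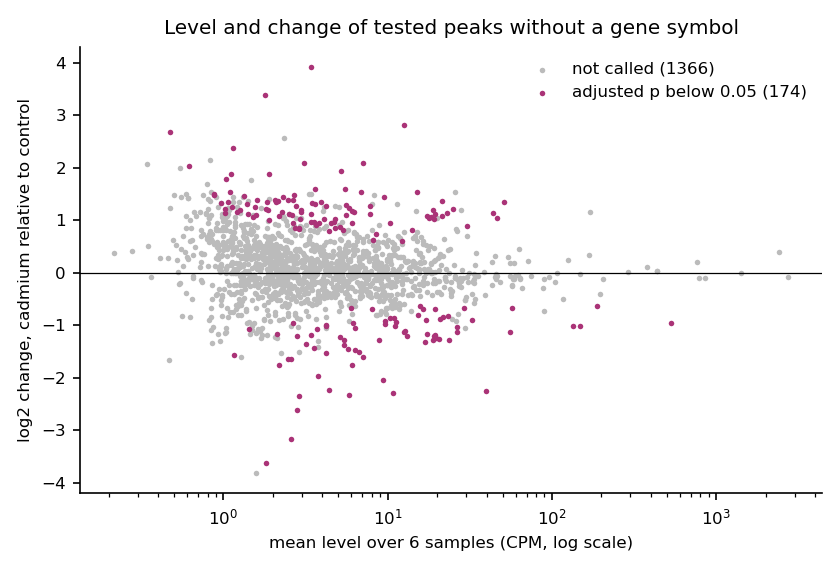
Each point is 1 of the 1540 tested peaks without a gene symbol, with its mean level over 6 samples in CPM on a log axis and its log2 change in cadmium relative to control samples. The 174 called peaks, in purple, lean to rises (77 against 33) below 7.499 CPM and to falls (40 against 24) above it.

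The 174 calls fell in 105 loci, 57 of them with higher and 48 with lower peaks, and no locus held both (0). In 30 loci more than 1 peak was called, and these 30 held 99 of the 174. By position, 39 of 263 tested peaks inside RefSeq protein-coding genes were called (14.8%, 27 higher and 12 lower), 30 of 215 inside long noncoding RNAs (13.95%, 12 and 18), 8 of 119 inside pseudogenes (6.72%) and 37 of 481 more than 5000 bp from any RefSeq gene (7.69%). By chromosome, 24 of 100 tested peaks were called on chromosome 6 (20 higher) and 21 of 89 on chromosome 3 (18 higher). On chromosome 2, 19 of 146 were called (4 higher), and on chromosome 4, 18 of 130 (6 higher). The share over all tested peaks without a symbol was 11.3%. Chromosome 5 had 1 of 76 and chromosome Y 0 of 13.

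The changes of peaks near an annotated peak were correlated with those of that peak. Across the 204 peaks within 1000 bp, the log2 change and that of the nearest annotated peak correlated at r = 0.874, and r fell to 0.753 (n = 461), 0.523 (n = 556) and 0.0506 (n = 319) in the farther distance classes. For annotated peaks and the nearest peak of another gene the values were 0.458 (n = 399), 0.236 (n = 5142), 0.195 (n = 21160) and 0.0523 (n = 8785). These are descriptions across peaks: all share the same 6 samples, one annotated peak can be the neighbour of several others, and RNA was fragmented to 200 to 500 bp, so the closest peaks can share fragments. Of the called peaks, 27 of 27 within 1000 bp and 61 of 61 farther but within 10000 bp had the sign of their neighbour. So did 54 of 65 farther but within 100000 bp and 14 of 21 beyond. Signs were not counted for uncalled or annotated peaks, so these counts are a description only.

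A direct test asked whether a peak's change departed from that of an annotated peak within 10000 bp. It called 0 of 665 peaks (limma, adjusted p below 0.05 over all 29467 pairs tested, where 0.0102% were called). An unadjusted p below 0.05 was found at 103 of the 665, beside 1846 of 28802 annotated peaks. The median absolute departure was 0.22 on the log2 scale, beside 0.10 for annotated peaks, whose neighbour can be of the same gene. With neighbours up to 100000 bp away, 4 of 1221 departed, where 0.0279% of all 35883 pairs were called. All 4 were in 1 run beside Ahdc1 that is described below, against the same neighbour.

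**Figure D3:**
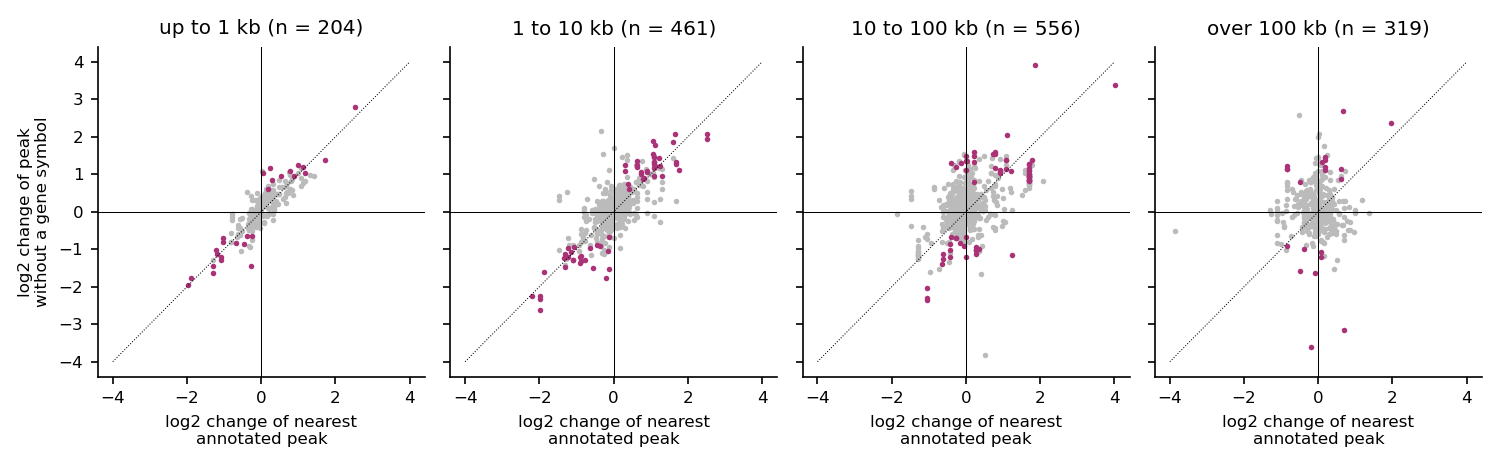
The log2 change of each peak without a gene symbol (vertical) against that of its nearest annotated peak (horizontal), in 4 classes of distance, with called peaks in purple and equality as a dotted line. The points follow the line within 1 kb (r = 0.874) and spread into a cloud without slope over 100 kb (r = 0.0506).

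Single peaks beside Cyp7a1, Cyp8b1, Sult3a1 and Sult3a2 were called, the first lower and the other 3 higher in cadmium samples. The peak chr4:6264421-6265198 lies 414 bp outside the RefSeq limits of Cyp7a1, which catalyses the first and limiting step from cholesterol to bile acids, and 1889 bp from an annotated Cyp7a1 peak. It had 35.2, 77.2 and 85.1 CPM in control samples 1 to 3 and 8.46, 22.0 and 10.9 CPM in cadmium samples 1 to 3. Each cadmium value lay below every control value, 4.77-fold lower in the fit (log2 change -2.25 ± 0.39 SE, edgeR adjusted p = 0.00917). The annotated Cyp7a1 peak changed by -2.20 on the log2 scale. Without cadmium sample 3 the adjusted p was 0.0520.

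Beyond the downstream end of Cyp8b1, which adds the 12-alpha hydroxyl group that makes cholic acid, the peak chr9:121912780-121912974 moved the other way. Its levels were 1.28, 2.61 and 4.19 CPM in control and 8.44, 13.6 and 12.2 CPM in cadmium samples, with a log2 change of 2.09 ± 0.35 (edgeR adjusted p = 0.00835), while the Cyp8b1 peak itself changed by 1.66. Of 69 peaks whose nearest annotated peak belongs to a cytochrome P450 gene, 1 was called higher and 2 lower (4.35%, below the share over all peaks), and the third of these lies 165851 bp from its neighbour Cyp2g1. The median log2 change of the 69 was -0.10, and 36 of them lay within 10000 bp of that annotated peak.

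The sulfotransferase genes Sult3a1 and Sult3a2 had 1 peak each past their downstream ends. The peak chr10:33879716-33880260 beside Sult3a1 had 12.4, 12.3 and 11.1 CPM in control and 37.0, 33.3 and 22.6 CPM in cadmium samples (log2 change 1.38 ± 0.19, edgeR adjusted p = 0.00354). The peak chr10:33766111-33766359 beside Sult3a2 rose from 0.0815, 0.697 and 0.136 CPM to 3.33, 4.07 and 2.44 CPM, a log2 change of 3.40 ± 0.56 (edgeR adjusted p = 0.00798). Both groups were apart at both peaks. The Sult3a genes resemble each other, and reads shared among them make the separate values uncertain.

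Near another sulfotransferase pseudogene the result turned on 1 sample. The 8 peaks of the run chr7:13858364-13866264 near Sult2a-ps2 summed to 0.896, 33.5 and 22.4 CPM in control samples and 7.87, 11.6 and 5.55 CPM in cadmium samples. All 8 had a log2 change between -1.25 and -1.05 and 0 were called, since control sample 1 lay below every cadmium sample. Without control sample 1, all 8 were called.

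Peaks past the downstream end of Onecut1 and of Slc16a12, and inside the noncoding genes Gm40656 and Gm40376, were called lower. Onecut1 is a hepatocyte transcription factor also known as HNF6. The 4 peaks of the run chr9:74892403-74895415 begin 2755 bp past the downstream end of the RefSeq gene and summed to 42.2, 19.04 and 22.0 CPM in control and 6.90, 5.01 and 5.53 CPM in cadmium samples. All 4 fell, by 1.96 to 2.61 on the log2 scale, and all 4 were called in every fit that left out 1 sample. The nearest annotated peak, shared by Onecut1 and Gm20649, changed by -1.97.

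Past the downstream end of Slc16a12, a transporter of the monocarboxylate family that carries creatine, lies a run of 6 peaks. For some of the 6 the nearest RefSeq gene was Ifit1bl1, and for the others Slc16a12. The 6 peaks summed to 55.8, 50.9 and 32.7 CPM in control and 26.1, 15.6 and 14.5 CPM in cadmium samples. The groups did not overlap, and 4 of the 6 were called lower, with a median log2 change of -1.43 over the 6. With the batch as a block all 6 were called, and without cadmium sample 3 none (0). Upstream of the same gene the peak chr19:34748139-34748698 was called the other way: it had 10.3, 9.12 and 9.67 CPM in control and 13.0, 16.2 and 15.3 CPM in cadmium samples (log2 change 0.61 ± 0.15, edgeR adjusted p = 0.0411), a call lost in 5 of the 6 fits without 1 sample. Inside the long noncoding RNA gene Gm40656, 5840 bp from a peak of the aldo-keto reductase Akr1c19, the peak chr13:4254193-4254615 had 12.1, 13.6 and 12.1 CPM in control and 5.04, 5.72 and 4.72 CPM in cadmium samples, a narrow spread in both groups (log2 change -1.29 ± 0.16, edgeR adjusted p = 0.00192). A second peak of that run was called as well, and both calls stood whichever sample was left out.

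All 3 peaks inside the noncoding gene Gm40376 were called lower, and all 3 calls were lost with the batch as a block and in 4 of the 6 fits without 1 sample. The 2 of them in the run chr12:32751418-32753194 lie 67326 bp or more from a peak of Nampt, the rate-limiting enzyme of NAD salvage. These 2 summed to 13.9, 50.8 and 34.4 CPM in control and 12.2, 3.49 and 6.42 CPM in cadmium samples, so control sample 1 lay close to cadmium sample 1. The higher of them, chr12:32752314-32753194, had a log2 change of -2.29 ± 0.51 (edgeR adjusted p = 0.0260). With the batch as a block its adjusted p was 0.0582, and within batches 1, 2 and 3 the log2 ratio was -0.21, -4.01 and -2.63.

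On chromosomes 3 and 6, long stretches of peaks had calls in 1 direction only, higher in cadmium samples. Tm4sf1, a small membrane protein with a 4-pass fold known from endothelium and epithelium, has 1 annotated peak, which rose by 1.69 on the log2 scale. Within the RefSeq limits of the same gene, 33 peaks without a symbol follow between chr3:57305916 and 57387701. All 33 had log2 changes above 0 (0.29 to 1.34, median 0.90), and 17 were called higher.

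The first run of 24 peaks summed to 64.7, 67.2 and 74.5 CPM in control and 172, 116 and 116 CPM in cadmium samples. The second run of 9 peaks summed to 57.3, 76.1 and 83.1 CPM in control and 163, 103 and 110 CPM in cadmium samples. The groups did not overlap in either run, and cadmium sample 1 was the highest in both. Fits without 1 sample called 6 to 16 of the 24 and 0 to 4 of the 9. The strongest single peak by its test, chr3:57328856-57329467, rose from 4.09, 4.00 and 5.62 CPM to 12.7, 10.5 and 10.03 CPM (log2 change 1.28 ± 0.19, edgeR adjusted p = 0.00464). As a sample-level measure of other cells, 2 of 4 cholangiocyte markers had a peak (Krt19 and Krt7 had none), and they summed to 6.64, 7.01 and 9.40 CPM in control and 29.5, 7.70 and 20.1 CPM in cadmium samples. The 3 of 4 endothelial markers with a peak (Clec4g had none) summed to 95.8 to 142 CPM and 95.1 to 145 CPM. Their part in the change was not tested.

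The murinoglobulin genes on chromosome 6 encode plasma protease inhibitors related to alpha-2-macroglobulin. In that cluster 19 peaks without a symbol, between chr6:121996288 and 122262816, all had log2 changes above 0 (0.69 to 1.47, median 1.08), and 16 were called higher. The run chr6:122163752-122173339 had 6 of 7 called and summed to 122, 89.7 and 117 CPM in control and 267, 192 and 215 CPM in cadmium samples. The run chr6:122249846-122262816 had 9 of 9 called and summed to 15.6, 18.9 and 19.3 CPM in control and 40.4, 46.8 and 40.4 CPM in cadmium samples. The peaks of that run lie outside RefSeq genes. For some of them the nearest RefSeq gene was Mug-ps1, and for the others Klrg1, which is not a murinoglobulin gene. In both runs, each cadmium sample was above each control sample. Of 25 annotated peaks in the same interval 11 were called higher, with a median log2 change of 0.91. The genes and pseudogenes of the cluster resemble each other, and reads matching several of them make single peaks uncertain.

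In clusters of similar genes on chromosomes 2 and 4, the called peaks were lower in cadmium samples. The interval from chr2:175090130 to 178066259 holds a zinc finger gene cluster, with predicted genes such as Gm14325 and named ones such as Zfp971. There, 54 of 57 peaks without a symbol had log2 changes below 0 (median -0.37), and 11 were called lower and 0 higher. Annotated peaks of the same interval had a median of -0.45, with 16 of 77 called lower and 0 higher. The run chr2:177509956-177512267 inside the noncoding gene Gm14403 had 3 of 3 called and summed to 67.4, 68.3 and 64.0 CPM in control and 37.5, 26.2 and 24.6 CPM in cadmium samples. The peak chr2:177143661-177143784 lies outside RefSeq genes, 2130 bp from the pseudogene LOC115489433. It had 32.7, 26.5 and 27.5 CPM in control and 13.2, 11.3 and 11.5 CPM in cadmium samples. The groups were far apart relative to their spread (log2 change -1.27 ± 0.15, edgeR adjusted p = 0.00192). Its nearest annotated peak, of Gm14410, is 46913 bp away and had a log2 change of -0.61 (edgeR adjusted p = 0.0958).

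The major urinary proteins are pheromone carriers that the male mouse liver secretes in bulk. All 9 peaks without a symbol whose nearest annotated peak was a Mup gene or pseudogene had log2 changes below 0, with a median of -0.89, and 4 were called lower. Annotated Mup peaks had a median of -1.09, with 9 of 29 called lower. The peak chr4:61520395-61520513, which overlaps RefSeq Mup-ps12, had 26.2, 23.9 and 30.2 CPM in control and 12.8, 14.1 and 6.01 CPM in cadmium samples (log2 change -1.29 ± 0.27, edgeR adjusted p = 0.0210, and 0.0755 without control sample 3). The groups were apart and cadmium sample 3 was the lowest. Mup genes are near copies of each other, so which copy the reads came from is uncertain.

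Another run on chromosome 4 was the most abundant of the 13 runs with 3 or more calls. Its change differed from that of the nearest annotated peak, which is distant and low. The 5 peaks of chr4:133096023-133101283 lie outside RefSeq genes, 18447 to 23280 bp from an annotated peak of Ahdc1, a gene for an AT-hook DNA-binding protein. The nearest RefSeq gene was the noncoding Gm26615 for the first peak, 8969 bp away, and the tRNA gene n-TGgcc1 for the last. The 5 peaks summed to 1052, 1194 and 1318 CPM in control and 640, 449 and 717 CPM in cadmium samples. All 5 were called lower, with log2 changes from -1.13 to -0.95, and 3 to 5 were called when 1 sample was left out. The Ahdc1 peak averaged only 2.4 CPM in control and 2.9 CPM in cadmium samples, with a log2 change of 0.26 (edgeR adjusted p = 0.561). From it, 4 of the 5 departed by -1.20 to -1.38 (limma adjusted p = 0.0243 to 0.0459, neighbours within 100000 bp). The 5 peaks are adjacent and 4 of the departures share 1 neighbour, so they are not independent of each other. The peak chr4:133098782-133100648 in its middle is 1866 bp wide and had 607, 695 and 791 CPM in control and 378, 270 and 437 CPM in cadmium samples.

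**Figure D4:**
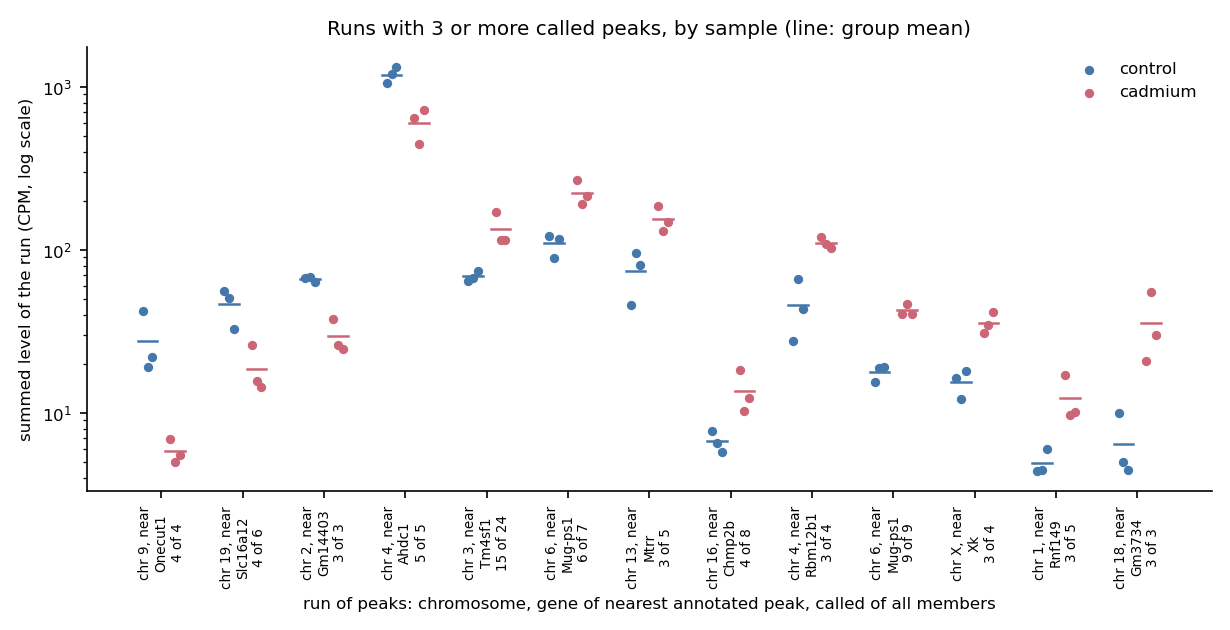
Summed level in CPM (log axis) of the 13 runs with 3 or more called peaks, with 1 point per sample, blue for control and red for cadmium, and a line at each group mean. Runs are ordered from the most negative to the most positive median log2 change. Control and cadmium points are apart in all 13 (near Onecut1, 42.2, 19.04 and 22.0 CPM in control and 6.90, 5.01 and 5.53 CPM in cadmium samples). The runs were chosen by their calls, and the groups were apart at all 174 called peaks, so the separation is a description only.

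Other runs rose. The 3 peaks beside the noncoding gene Gm3734, in chr18:46643200-46645340, were all called higher whichever sample was left out, and the first of them had 5.15, 2.35 and 1.95 CPM in control and 10.7, 36.3 and 19.4 CPM in cadmium samples. That is 7.01-fold in the fit (log2 change 2.81 ± 0.46, edgeR adjusted p = 0.00741), with a wide spread among the cadmium samples. At the Urml gene, whose start window is printed above, the run chr13:68228497-68238326 summed to 45.97, 95.3 and 80.9 CPM in control and 186, 131 and 149 CPM in cadmium samples, and 3 of its 5 peaks were called higher. Its nearest annotated peak, of Mtrr, lies at least 323050 bp away, was under 1 CPM on average in both groups and had a log2 change of -0.85 that did not pass the test (edgeR adjusted p = 0.253). The Urml calls numbered 0 without cadmium sample 3.

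At the pseudogene Gm11843, the run chr4:12131346-12136387 had 3 of 4 peaks called higher, and its widest, chr4:12134185-12135595, had 16.9, 41.3 and 28.0 CPM in control and 80.3, 70.5 and 68.6 CPM in cadmium samples (log2 change 1.35 ± 0.27, edgeR adjusted p = 0.0165). The cadmium values were tight and the control values spread over more than 2-fold, and without cadmium sample 3 or control sample 3 the adjusted p was 0.0569 or 0.0659. Near the pseudogene Gm6829 on chromosome X, the peak chrX:9329556-9329901 rose from 7.99, 5.70 and 9.47 CPM to 18.8, 21.7 and 26.7 CPM (log2 change 1.54 ± 0.21, edgeR adjusted p = 0.00330). Inside Rnf125, a ubiquitin ligase of antiviral signalling, the peak chr18:20987099-20987266 rose from 7.15, 3.96 and 4.24 CPM to 14.8, 11.1 and 15.9 CPM (log2 change 1.45 ± 0.24, edgeR adjusted p = 0.00833).

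Inside the noncoding gene Gm5817 and 322 bp from an annotated peak of Prkce, which encodes protein kinase C epsilon, the peak chr17:86166333-86167406 had 11.5, 13.8 and 12.6 CPM in control and 27.2, 21.2 and 28.8 CPM in cadmium samples. Its log2 change was 1.03 ± 0.17 (edgeR adjusted p = 0.00709), while the Prkce peak had a log2 change of 0.04 (edgeR adjusted p = 0.900). The difference between the 2 peaks did not pass the test above.

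The largest log2 changes belonged to low peaks, named here after their values were seen. The peak chr19:11392875-11393233 lies inside Ms4a4a, a membrane protein gene of macrophages. Its levels were 0.407, 0.518 and 0.340 CPM in control and 2.91, 7.71 and 8.68 CPM in cadmium samples (log2 change 3.92 ± 0.41, edgeR adjusted p = 0.00112), and the call stood whichever sample was left out. A peak inside Siglec1, a sialic acid receptor of macrophages (chr2:131067834-131067974), rose from 0.346, 0.637 and 0.408 CPM to 1.02, 2.28 and 1.55 CPM (log2 change 1.80 ± 0.39, edgeR adjusted p = 0.0235), a call lost in 4 of the 6 fits without 1 sample. Of 4 Kupffer cell markers, 3 had a peak (Adgre1 had none), and they summed to 108 to 168 CPM in control and 183 to 240 CPM in cadmium samples. All 4 stellate cell markers had a peak, with sums of 106 to 141 and 160 to 196 CPM, and the 5 hepatocyte markers summed to 16600 to 18300 and 15400 to 17900 CPM. The part of these cells in the rises was not tested.

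The largest fall was at chr1:27505701-27505803, 282070 bp from the nearest RefSeq gene, with 2.57, 4.62 and 2.90 CPM in control and 0.142, 0.470 and 0.174 CPM in cadmium samples (log2 change -3.62 ± 0.43, edgeR adjusted p = 0.00182). The peak chrX:79689843-79689999 inside the RefSeq gene Gm52435 fell from 2.69, 3.45 and 7.82 CPM to 0.402, 0.669 and 0.457 CPM (log2 change -3.16 ± 0.42, edgeR adjusted p = 0.00287). Both calls stood in every fit that left out 1 sample. Inside Nnmt, the nicotinamide N-methyltransferase gene, the peak chr9:48588602-48589002 had 7.37, 11.7 and 10.6 CPM in control and 3.45, 4.09 and 2.87 CPM in cadmium samples (log2 change -1.51 ± 0.22, edgeR adjusted p = 0.00399).

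Of the 10 most abundant peaks, 9 did not pass the test. The 10 took 35.7% to 49.7% of all counts in peaks without a symbol, and the 1 called, chr4:133098782-133100648, is in the run beside Ahdc1. The highest, chr18:85698010-85698117, is 107 bp wide, lies 746762 bp from an annotated peak, and had 3674, 1172 and 3592 CPM in control and 3483, 1286 and 3254 CPM in cadmium samples (log2 change -0.07 ± 0.42, edgeR adjusted p = 0.942). Sample 2 of both groups was low there. The second, chr10:121763168-121763278, had 2498, 1316 and 2432 CPM in control and 2577, 3546 and 2097 CPM in cadmium samples, with no such pattern.

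The third, chr19:4061862-4064702, lies 2257 bp upstream of the glutathione transferase gene Gstp3 and at 2840 bp is also the widest. It had 1324, 1626 and 1286 CPM in control and 1388, 1309 and 1531 CPM in cadmium samples (log2 change 0.00 ± 0.14, edgeR adjusted p = 0.995), so the groups overlapped within a narrow range. The next, chr11:109011785-109011984 inside Gm36876 and chr3:5860421-5860747, ranged from 558 to 1154 CPM and from 566 to 1017 CPM over the 6 samples, with edgeR adjusted p = 0.867 and 0.809. The other 2 widest peaks, chr15:82684768-82687235 (2467 bp, beside Cyp2d pseudogenes) and chr2:75639969-75642220 (2251 bp), had log2 changes of 0.34 ± 0.17 and 0.10 ± 0.23 and edgeR adjusted p = 0.284 and 0.837.

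Differences between batches were looked for after these values were seen. In the fit with batch as a term, the batch mattered at 5 of 1540 peaks without a symbol (edgeR adjusted p below 0.05), beside 0.0458% of all peaks. At 100 CPM or more it mattered at 3 of 23, beside 4 of 1351 annotated peaks. The 3 were the highest peak above and the pair chr2:73263669-73263845 and chr2:73048572-73048677. That pair carried nearly equal counts, as described below, so the 3 and the 5 include peaks that are not separate measurements. The rest of the 5, chr16:30063468-30063575 near Hes1 and chr9:48653310-48653452 inside Zbtb16, had lower levels. At the first of the chromosome 2 pair the levels were 717, 88.3 and 479 CPM in control and 720, 110 and 487 CPM in cadmium samples, so sample 2 of both groups was again low. Sample 2 was low in both groups near Hes1 too, at 9.28 and 8.19 CPM where the others ranged from 21.1 to 34.5 CPM. Inside Zbtb16 the pattern was another one. There, sample 1 was high in both groups, at 11.1 and 9.22 CPM where the others ranged from 0.996 to 2.31 CPM. The cause was not tested.

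The chromosome 2 pair carried nearly equal counts. The 2 peaks lie 215097 bp apart, and their counts were 35196, 4435 and 21135 against 35157, 4417 and 21095 in control samples and 30452, 6088 and 22354 against 30416, 6064 and 22313 in cadmium samples. An annotated Ola1 peak between them, chr2:73137553-73137658, had 35142, 4454 and 21099 counts in control and 30425, 6060 and 22285 in cadmium samples, all within 2% of the other two. Another annotated Ola1 peak, chr2:73093227-73093511, had similar levels, at 719, 92.05 and 481 CPM in control and 722, 112.5 and 487 CPM in cadmium samples. At chr2:73048572-73048677 the levels were 716, 88.0 and 478 CPM in control and 719, 110 and 486 CPM in cadmium samples. None of these peaks can be counted as separate measurements.

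On chromosome Y, the 13 peaks had levels between 0.717 and 76.4 CPM in single samples, and 0 were called. The 3 peaks farthest from any annotated peak lie there, and the highest of them, chrY:43039590-43039864, had 45.6, 76.4 and 64.7 CPM in control and 36.2, 65.5 and 56.3 CPM in cadmium samples (log2 change -0.24 ± 0.24, edgeR adjusted p = 0.612). The other two, at chrY:37764951-37765056 and chrY:37765279-37765432, had log2 changes of 0.28 ± 0.30 and 0.11 ± 0.14. Much of this chromosome is repeated, and reads that match several places make its peaks uncertain. The mitochondrial genome had 1 peak without a symbol, chrMT:15771-16060, past the gene of the proline tRNA. It had 258, 199 and 228 CPM in control and 175, 134 and 131 CPM in cadmium samples (log2 change -0.64 ± 0.16, edgeR adjusted p = 0.0462), a call lost in 4 of the 6 fits without 1 sample.

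Lists of neighbouring genes gave few further calls. Among peaks whose nearest annotated peak belongs to a plasma protein gene, 0 of 8 were called. These lists go by the nearest annotated peak at any distance. Of 56 peaks assigned to zinc finger genes with a Zfp symbol (22 within 10000 bp), 1 was called higher and 2 lower (median log2 change -0.01). Of 388 assigned to predicted or RIKEN genes (201 within 10000 bp), 20 were called higher and 28 lower (12.4%, median 0.01). Of 18 assigned to UDP-glucuronosyltransferase or sulfotransferase genes, 4 lay within 10000 bp. The 2 Sult3a peaks were called higher, 15 of the 18 had log2 changes below 0, and 8 of those 15 are the Sult2a-ps2 run. The lists for fatty acid and cholesterol genes held 3 peaks, with 1 called higher near Fabp1 (chr6:71182206-71182583), a call lost in 5 of the 6 fits without 1 sample and with the batch as a block. The lists for clock genes, metal-handling genes and named long noncoding RNAs held 1 peak each, and 0 of these were called.

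The authors' deposited table called 142 of the 1555 peaks up and 70 down, together 13.6%, and 986 up and 587 down among all 37118 peaks, together 4.24%. In the authors' deposited table a call goes with an unadjusted p-value below 0.05 and an absolute log2 change of at least 1, so its counts are not those of the edgeR test.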

How the data were processed

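The deposited table gives the authors' whole-number counts for 37118 peaks in 6 samples, with the authors' log2 fold change, p-value and adjusted p-value per peak. The values show no normalisation of the counts. The count columns are headed by library numbers that a sample's immunoprecipitated and input libraries share, and reading them as immunoprecipitated counts is an assumption. Per the labels' protocols the input is the unbound RNA. Per the submitters' processing notes the build is mm10 and the tools include STAR 2.7.1a and MACS2 2.1.1. Whether peaks were called per sample, how reads matching several places were counted, whether counting used strand, which annotation gave the symbols and whether starts count from 0 are not given in the sources used here.

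Both the choice of peaks without a symbol and the gene lists and cell markers were made with earlier results of these data known. All peaks were fitted with edgeR 4.0.16 in R 4.3.3 (TMM scaling, filterByExpr with minimum count 10, quasi-likelihood test, 3 cadmium against 3 control samples), which kept 37088 peaks, and p-values were adjusted over all of them by the Benjamini-Hochberg method. Levels are CPM with TMM scaling, and each log2 change is that of cadmium over control samples, its SE being approximate and derived from the F statistic. The departure of a peak from the nearest annotated peak was fitted with limma 3.58.1 on the difference of their log2 CPM (prior count 2) over all peaks. The steps were tested on simulated data. Replicates of a group differed beyond sampling noise, with a chi-square per degree of freedom of 23.1 to 128 over the peaks without a symbol.

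The labels give samples of equal number the same batch, so equal numbers pair a control with a cadmium sample. As a check, the samples' distances from their group mean correlated at 0.146, 0.214 and 0.174 over all tested peaks within batches. Alternatives were the batch as a replicate block, RLE scaling, other filters, DESeq2 1.42.0, the authors' deposited adjusted p, library sizes without the Gm12895 and Gm12896 peaks, and fits without each sample.

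Peaks are named by this rule: the 10 largest rises and 10 largest falls among calls whose level reaches the median of all tested peaks, 1 per locus of peaks up to 5000 bp apart, the 5 highest, the 3 widest, the 3 farthest from an annotated peak and the 3 loci with the most peaks. Other peaks named were chosen after their values were seen. The RefSeq gene and promoter tables are of GRCm38.p6, the same assembly as mm10. Only windows in those tables gave sequence, so the m6A motif within most peaks was not analysed here. Mitochondrial and chromosome Y peaks stayed in the fit.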

Additional observations from a re-analysis of the deposited data

How the results depend on the processing

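The count of 174 calls ranged from 57 to 175 when 1 sample was left out (113 without control sample 2, 86 without control sample 3, 57 without cadmium sample 3) and was 269 with DESeq2 and 269 by the authors' deposited adjusted p. It was 218 with the replicate block (163 shared), 174 with RLE scaling, 171 without a filter and 172 with a mean of at least 1 CPM. The share of calls that were higher was 58.0%, and 49.7% or 48.9% without control or cadmium sample 1. Of the 174, 50 were called in every alternative and 0 changed sign. The share of counts differed by -0.114 to 0.170 percentage points without 1 sample, and the block's exact p was 0.75. Departures numbered 0 except 4 of 1221 with neighbours up to 100000 bp (0.0279% of all pairs). Of the 10 uncalled named peaks, 5 changed sign under some alternative and 5 did not. The log2 change at chr19:4061862-4064702 was 0.0025 with the block, 0.0014 without a filter and 0.0023 with the higher minimum. Without 1 sample it ranged from -0.0662 to 0.11 there, from -0.45 to 0.26 at chr18:85698010-85698117, from -0.27 to 0.15 at chr11:109011785-109011984, from -0.24 to 0.0934 at chr3:5860421-5860747 and from -0.0944 to 0.45 at chr2:75639969-75642220. The causes were not tested. Peaks under 1 CPM rest on few counts, and intervals on them were not computed.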

Other observations

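Some long runs of peaks without a symbol had no call. The 9 peaks of chr6:141875620-141887290, at the noncoding genes Gm30784 and Gm30843, summed to 28.6, 90.0 and 37.8 CPM in control samples 1 to 3 and 75.7, 40.5 and 33.0 CPM in cadmium samples 1 to 3, with a median log2 change of -0.15. Control sample 2 and cadmium sample 1 were the high ones. The 10 peaks of chr14:36970042-36987441, beside the gene Ccser2, summed to 50.4, 53.4 and 57.6 CPM in control and 83.1, 51.5 and 42.0 CPM in cadmium samples, with cadmium sample 1 the highest. The 8 peaks of chr4:41882113-41892768, at predicted pseudogenes, summed to 33.6, 39.9 and 26.0 CPM in control and 38.8, 32.8 and 30.8 CPM in cadmium samples, with no sample apart.

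At chr2:28140778-28140883, 88360 bp from an Olfm1 peak, the log2 change was -3.82 ± 1.34, larger than at any called peak that fell, and the edgeR adjusted p was 0.123. The control mean was 2.96 ± 4.74 CPM (SD, n = 3) and the cadmium mean 0.211 ± 0.125 CPM, so the SD of the control samples exceeded their mean.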
